A study of Mus musculus with 12 samples.

Results

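The nuclear-encoded genes of oxidative phosphorylation were examined in the livers of 12 hFIX-R29X mice. They were taken as the protein-coding genes whose symbol starts with Nduf, Uqcr, Atp5 or Cox4 to Cox8, together with Sdha, Sdhb, Sdhc and Sdhd. The rule uses names alone and gave 94 of 31114 genes, of which 46 belong to complex I, 4 to complex II, 8 to complex III, 18 to complex IV and 18 to complex V. Of the 94 genes, 85 reached 5 TPM (an abundance per transcript length, scaled to the same total in each liver) in 4 or more of the 12 livers and were tested among 8846 genes in all. The rule also took in 8 assembly factors of complex I, which help to build the complex and are not part of it.

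The mice model hemophilia B. The mouse F9 gene is deleted, and a minigene of human factor IX, bearing the nonsense codon R29X, is driven by the human transthyretin promoter, which is active in hepatocytes. Mice of 8 to 14 weeks received 6 doses at intervals of 5 days, and the liver was taken 48 h after the last dose. There were 3 groups of 4 separate animals: DPBS (the vehicle), a Control-GalNAc-ASO at 15 mg/kg (control ASO livers) and an Upf3b-GalNAc-ASO at 10 mg/kg (Upf3b-ASO livers). An ASO is an antisense oligonucleotide, GalNAc is a sugar that hepatocytes take up, and UPF3B acts in nonsense-mediated mRNA decay (NMD), which degrades mRNAs with premature stop codons. In each group, replicates 1 and 2 were females and replicates 3 and 4 were males. Hepatocytes were thus the cells reached best, whereas whole liver was sequenced, and in such samples fewer cells of a type and less RNA per cell cannot be told apart.

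Oxidative phosphorylation passes electrons from NADH, through complex I, and from succinate, through complex II, to complex III and then to oxygen at complex IV. Complexes I, III and IV pump protons across the inner mitochondrial membrane, and complex V, the ATP synthase, uses their return to make ATP. All of complex II and most subunits of the other complexes are encoded in the nucleus, and the rest in mitochondrial DNA. Hepatocytes are rich in mitochondria and use this ATP for gluconeogenesis, urea synthesis and protein secretion.

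The 94 genes took 115422 to 176041 estimated counts per liver, or 0.686 to 0.998% of each library. Upf3b, the target, was at 1.58, 0.65, 0.996 and 0.674 CPM (counts scaled to a common library size) in the Upf3b-ASO livers and at 7.93 to 12 CPM in the control ASO livers (log2 fold change -3.30 ± 0.27 (SE), adjusted p = 7.4e-05). The ranges did not overlap, and the target gene followed the label in every library. Summed hepatocyte markers were at 62250 to 93460 CPM with DPBS, 57200 to 94560 CPM with control ASO and 44300 to 84030 CPM with Upf3b-ASO, and 1 of the 5 markers, Serpina1a, passed the test between Upf3b-ASO and each reference group. The control ASO liver 3 stood apart. Its summed cholangiocyte markers were at 39.0 CPM, against 3.29 to 5.86 CPM in the other 11 livers, and its endothelial markers at 233.1 CPM, against 273.9 to 381.9 CPM. The control ASO liver 1 had erythroid markers at 2992 CPM, against 211.2 to 548.3 CPM in the other livers, and Kupffer cell markers at 623.9 CPM, against 227 to 440.7 CPM. Results are therefore also given without each of these livers. Striated muscle and brown fat markers, which would bring muscle forms of several subunits, summed to at most 0.272 and 0.577 CPM in any liver.

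Promoter sequences are shown for 4 of the genes on which the group or sex comparisons below turn. Uqcr10 and Ndufaf5 were higher and Atp5d was lower in Upf3b-ASO livers than in control ASO livers, and Cox6a1 was higher in males. Each is the 250 bases before the transcription start in RefSeq (GRCm38.p6), written 5′ to 3′ on the strand of the gene, with capitals for any match to the motifs named in the next paragraph.
Uqcr10 promoter (chr11:4704345-4704594, minus strand): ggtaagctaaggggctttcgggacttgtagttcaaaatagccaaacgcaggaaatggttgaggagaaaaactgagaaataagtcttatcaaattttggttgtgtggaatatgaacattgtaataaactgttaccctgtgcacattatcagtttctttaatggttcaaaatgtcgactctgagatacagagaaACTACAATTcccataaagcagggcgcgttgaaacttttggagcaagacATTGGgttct
Ndufaf5 promoter (chr2:140170396-140170645, plus strand): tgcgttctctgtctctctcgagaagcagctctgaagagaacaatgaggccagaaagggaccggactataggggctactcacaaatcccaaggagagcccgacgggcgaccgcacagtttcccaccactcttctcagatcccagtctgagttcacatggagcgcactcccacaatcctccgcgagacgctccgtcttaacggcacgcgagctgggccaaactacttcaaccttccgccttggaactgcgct
Atp5d promoter, the first of 2 listed starts (chr10:80142025-80142274, plus strand): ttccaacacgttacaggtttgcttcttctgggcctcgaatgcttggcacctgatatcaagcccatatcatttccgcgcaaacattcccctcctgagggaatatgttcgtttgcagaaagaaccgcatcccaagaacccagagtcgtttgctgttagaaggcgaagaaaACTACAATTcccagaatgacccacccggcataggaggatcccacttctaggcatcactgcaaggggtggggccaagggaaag
Cox6a1 promoter (chr5:115348959-115349208, minus strand): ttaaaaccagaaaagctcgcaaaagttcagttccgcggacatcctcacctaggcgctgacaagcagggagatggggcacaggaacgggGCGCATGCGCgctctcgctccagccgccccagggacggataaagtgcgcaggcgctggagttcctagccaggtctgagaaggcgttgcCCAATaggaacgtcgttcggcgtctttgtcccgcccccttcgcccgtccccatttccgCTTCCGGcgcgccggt

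Windows were found for 74 of the 93 member symbols (79 windows), and each motif was searched on both strands in 300 bases, from 250 before to 50 after the start. The core of the NRF1 site (GCGCATGC), a factor known for driving respiratory chain genes, was in 15.2% of the member windows and in 2.71% of all 32851 windows. The ETS core (CCGGAAG), bound by the GABP factor among others, was in 22.8% and 8.86%, and the YY1 core (AAGATGGC) in 12.7% and 2.75%. The cAMP response element (TGACGTCA) was in 5.06% and 1.79%, the CCAAT box in 43.0% and 37.4%, and the TATA box (TATAAA) in 10.1% and 13.6%. The median GC content was 57.7% in the member windows and 52.7% in all, and the median count of the letter pair CG was 19 and 7. The NRF1, ETS and cAMP element letters contain CG, and windows of like CG count were not compared. Cox6a1 held the NRF1, CCAAT and ETS letters, and Ndufaf5 held none of these motifs. Ndufaf7 and Cox7a2, on which the comparisons also turn, held none either in the 250 bases before the start. Their sequences are not shown. Uqcr10 and Atp5d shared ACTACAATT, the core of a site bound by ZNF143 and THAP11, which lay 58 bases before the start in Uqcr10 and 82 bases before it in Atp5d. This motif was searched after these sequences had been seen, and among the member windows it was in those of these 2 genes alone, so its share of the member windows is set by that choice. It was in 0.393% of all windows. A match describes letters and is not a bound site.

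First, the levels were compared between the complexes. In TPM, the median gene of complex I was at 113.5, that of complex II at 238.4, of complex III at 238.5, of complex IV at 314.7 and of complex V at 303.6. Atp5b, the catalytic beta subunit of the ATP synthase, was highest at 1623 TPM, and Ndufaf5, an assembly factor, was lowest of the tested genes at 4.91 TPM. These levels are means over the 12 livers and compare genes per length.

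**Figure D1:**
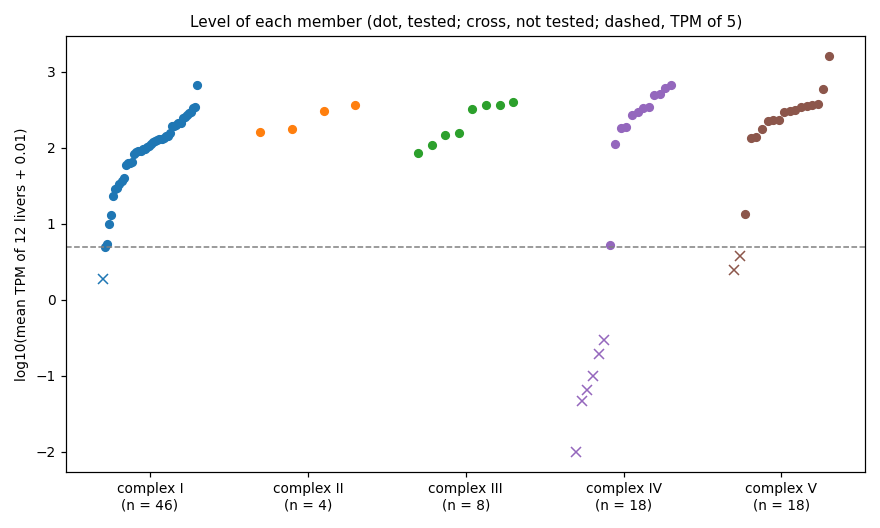
Level of each of the 94 oxidative phosphorylation genes by complex, as log10 of the mean TPM of 12 livers plus 0.01. Dots are tested genes, crosses are genes under the filter and the dashed line is a TPM of 5. Most dots lie far above the line, and the topmost is Atp5b at 1623 TPM.

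Subunits of complex IV with tissue forms showed the liver form. Cox6a1 was at 295 TPM, while Cox6a2, the heart and muscle form, did not pass the filter. Likewise Cox4i1 was at 611 TPM, and Cox4i2, a form best known from lung, did not pass. Cox8a was at 335 TPM, and Cox8b, another muscle form, did not pass. Cox7a2 was at 189 TPM, and its muscle partner Cox7a1 was at 5.31 TPM, just above the filter. Its CPM was 1.04, 0.802, 0.77 and 0.318 with DPBS, 1.31, 0.735, 0.216 and 0.717 with control ASO and 0.645, 1.19, 0.666 and 0.993 with Upf3b-ASO, so that the 3 groups overlapped. The 3 genes for subunit c of the ATP synthase, whose mature proteins are the same, differed in level. Atp5g3 was at 309.5 TPM, Atp5g1 at 224 TPM and Atp5g2 at 13.6 TPM.

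The 9 genes under the filter were Cox4i2, Cox6a2, Cox6b2, Cox7b2, Cox8b, Cox8c, Ndufa4l2, Atp5s and a second, longer Atp5o gene model that spans its neighbours. The highest values among them were 7.97 TPM for Ndufa4l2 and 5.22 TPM for the longer Atp5o model in a single liver, and Cox8c had no counts. Near copies and overlaps also limit some values. The processed pseudogene Ndufb4c was at 19.8 to 28.8 CPM, so reads of Ndufb4 may be split with it. Cox4i1 overlaps the gene model Gm20388 on the same strand, which was at 32.1 CPM.

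Next, the complexes were summed to ask whether depletion of Upf3b moved any of them as a whole. Complex I summed to 2537, 2545, 2458 and 2583 CPM with DPBS. It summed to 2403, 2586, 2532 and 2823 CPM with control ASO and to 2325, 2533, 2840 and 2732 CPM with Upf3b-ASO. The ranges of all 3 groups overlapped, and the DPBS livers lay closest together.

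Complex II, which has no mitochondrially encoded subunit, summed to 828, 844, 855 and 849 CPM with DPBS, 807, 869, 806 and 935 CPM with control ASO and 829, 898, 1054 and 945 CPM with Upf3b-ASO. Complex III summed to 789, 797, 740.2 and 792 CPM with DPBS, to 742, 813, 865 and 886 CPM with control ASO and to 738, 809, 899 and 867 CPM with Upf3b-ASO. Both sets of values overlapped between the groups, with the Upf3b-ASO liver 3 highest for each.

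Complex IV summed to 1180, 1221, 1227 and 1238 CPM with DPBS, 1108, 1222, 1502 and 1416 CPM with control ASO and 1101, 1193, 1433 and 1363 CPM with Upf3b-ASO. Complex V summed to 3338, 3422, 3258 and 3377 CPM with DPBS, to 3231, 3488, 3571 and 3741 CPM with control ASO and to 3282, 3501, 3873 and 3679 CPM with Upf3b-ASO. The control ASO liver 3 had the highest complex IV sum of all 12 livers, and the complex V groups overlapped.

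Over all 94 genes the sum was 8719 ± 144 CPM with DPBS, 9087 ± 630.2 CPM with control ASO and 9223 ± 792 CPM with Upf3b-ASO (mean ± SD, n = 4 each). The log2 ratio of the means was 0.02 for Upf3b-ASO against control ASO and 0.08 against DPBS, and all group ranges overlapped. Without the control ASO liver 3, the first ratio was 0.03. As a share of the deposited counts without further scaling, the genes took 0.779 to 0.874% with DPBS, 0.686 to 0.930% with control ASO and 0.869 to 0.998% with Upf3b-ASO. Under scaling by library totals the log2 ratio of the sums, Upf3b-ASO to control ASO, was 0.19. That scaling moved the median log2 fold change of all tested genes from -0.02 to 0.15 and that of the members from 0.01 to 0.19, and the members stood 0.03 above all genes under both. A sum over the members is a description here and carries no p.

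**Figure D2:**
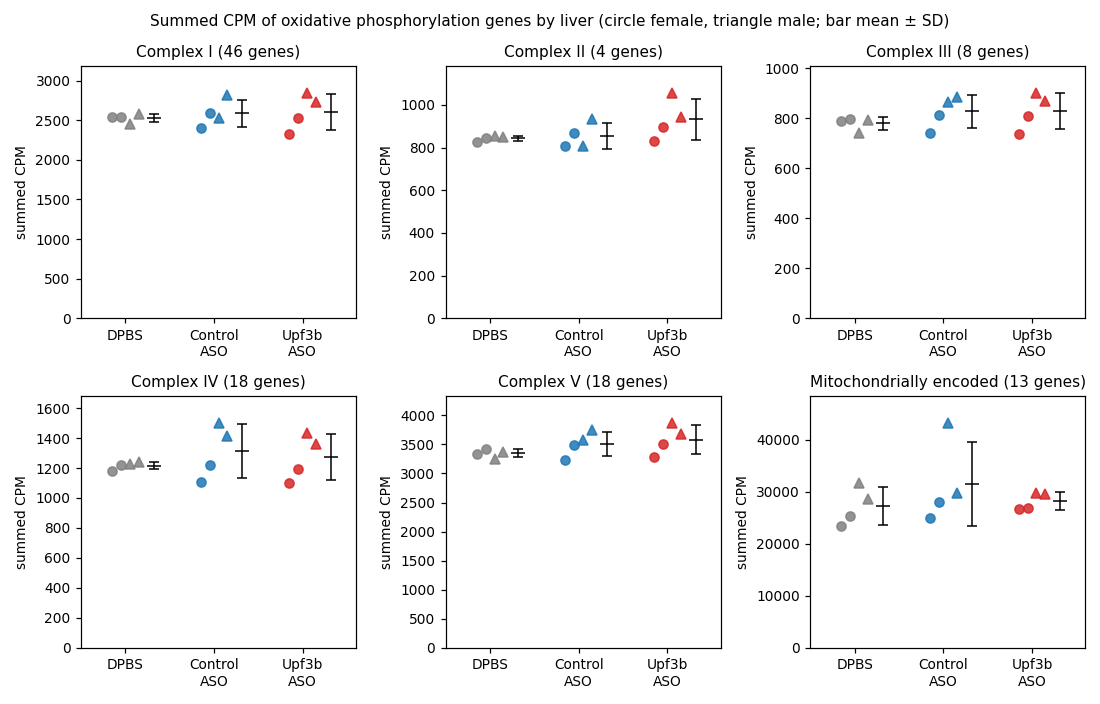
Summed CPM (TMM scaling) of complexes I to V and of the 13 mitochondrially encoded subunits in each of the 12 livers, by group. Circles are females, triangles are males and bars are the mean ± SD (n = 4). The groups overlap in every panel, and for complexes I to V the DPBS livers lie closest together.

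The DPBS livers also varied least, with a coefficient of variation of 1.65% for the sum of all 94 genes. Single genes varied little in general. The median SD within groups was 0.134 on the log2 scale over the 85 tested genes, against 0.226 over all tested genes and 0.200 over the 5351 genes at the level of the members.

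For comparison, the 13 subunits encoded in mitochondrial DNA were summed. They reached 27290 ± 3661 CPM with DPBS, 31580 ± 8071 CPM with control ASO and 28250 ± 1651 CPM with Upf3b-ASO (mean ± SD, n = 4 each). The control ASO liver 3 was at 43310 CPM. The log2 ratio of Upf3b-ASO to control ASO was -0.16 with that liver and 0.03 without it. None of the 13 passed the edgeR test between Upf3b-ASO and control ASO livers (2 at an unadjusted p under 0.05). DESeq2 called mt-Cytb, with 17.9% of all genes called, and limma called 0.

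To test the genes one by one, all 12 livers were fitted with group and sex in edgeR's quasi-likelihood test, with adjustment over the 8846 genes. Between Upf3b-ASO and control ASO livers, 3 of the 85 members passed at an adjusted p under 0.05, or 3.53%. Over all tested genes 910 passed, or 10.3%. The members called were Uqcr10 and Ndufaf5, which were higher, and Atp5d, which was lower. The split was 4 higher and 4 lower in DESeq2, which called 17.9% of all genes. It was 3 higher and 0 lower under library totals and in limma on log2(TPM + 1), and the latter called 6.93% of all genes. In the higher direction 4.34% of all genes passed, and in the lower direction 5.95%. At an unadjusted p under 0.05 the share was 12.9% of the members and 28.0% of all genes.

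Most members lay close to 0. The log2 fold changes of the 85 ran from -0.30 to 0.77 with a median of 0.01, against -0.02 over all genes, and 76 of them (89.4%) were within 0.25 of 0, against 58.8% of all genes. The 95% confidence interval lay within 0.5 of 0 on both sides for 72 members (84.7%), and for 44.5% of all genes. In CPM, the Upf3b-ASO and control ASO livers did not overlap for 5 members (5.88%), against 15.5% of all genes. Ndufaf5, Ndufaf7 and Sdhc lay above, and Ndufb7 and Ndufs4 lay below (Ndufb7 and Ndufs4 were named after their values had been seen).

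**Figure D3:**
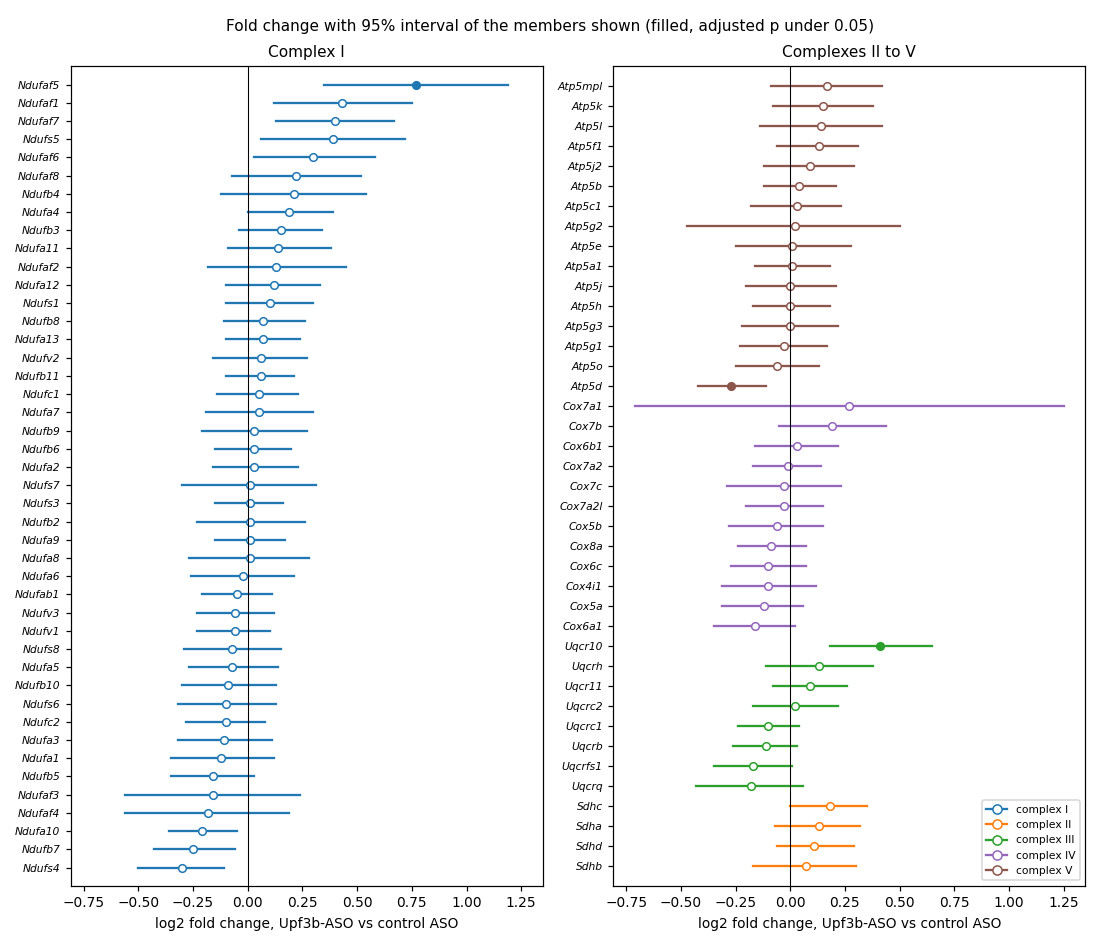
Log2 fold change of the tested genes between Upf3b-ASO and control ASO livers, by complex, with 95% confidence intervals from edgeR (n = 4 per group, TMM scaling). The filled points, Ndufaf5, Uqcr10 and Atp5d, passed the test, and the values run from -0.30 to 0.77.

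Uqcr10 is a small subunit of complex III, at chr11:4701973-4704342 (GRCm38). Its CPM was 57.7, 60.5, 60.4 and 63.0 with DPBS, 50.2, 55.6, 70.5 and 77.8 with control ASO and 64.0, 77.03, 99.8 and 97.1 with Upf3b-ASO. The Upf3b-ASO livers all lay above the DPBS livers, whereas they overlapped with the control ASO livers, since the control ASO males were near the Upf3b-ASO females. Within each sex both Upf3b-ASO livers were above both control ASO livers. The log2 fold change was 0.41 ± 0.11 (SE, 95% interval 0.18 to 0.65, adjusted p = 0.034) against control ASO. It was 0.46 ± 0.11 (adjusted p = 0.023) against DPBS. The call against control ASO was lost under 5 of 12 other analysis settings and in 6 of 12 fits that left out a liver.

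Ndufaf5 hydroxylates an arginine of the core subunit Ndufs7 early in complex I assembly, and the gene is at chr2:140170649-140203689. Its CPM was 3.44, 4.46, 3.97 and 3.92 with DPBS, 3.33, 4.30, 2.23 and 3.05 with control ASO and 5.16, 4.99, 6.06 and 5.83 with Upf3b-ASO. All 4 Upf3b-ASO livers lay above the other 8 livers. The log2 fold change was 0.77 ± 0.19 (SE, 95% interval 0.35 to 1.19, adjusted p = 0.027) against control ASO and 0.48 ± 0.18 (adjusted p = 0.14) against DPBS. The second value did not pass. The gene rested on 31 to 92 counts per liver, and control ASO liver 3 was the lowest. Without that liver the difference from control ASO was 0.63 ± 0.17 (SE, adjusted p = 0.021). The call was lost under 2 of 11 other settings and in 4 of 12 fits that left out a liver.

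Atp5d encodes the delta subunit in the central stalk of the ATP synthase and is at chr10:80138632-80145818. Its CPM was 83.8, 88.0, 88.1 and 88.3 with DPBS, 83.0, 87.0, 96.8 and 95.7 with control ASO and 69.4, 71.9, 85.6 and 74.2 with Upf3b-ASO. The Upf3b-ASO liver 3 lay among the reference livers and the other 3 lay below them all. The RefSeq start shown above lies inside the longer Ensembl gene. The log2 fold change was -0.27 ± 0.07 (SE, 95% interval -0.42 to -0.11, adjusted p = 0.034) against control ASO and -0.21 ± 0.07 (adjusted p = 0.085) against DPBS. The call against control ASO was lost under 9 of 12 other analysis settings and in 7 of 12 fits that left out a liver.

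Against DPBS, 2 of the 85 members (2.35%) passed and both were higher in the Upf3b-ASO livers, while 790 of all genes passed (8.93%) and 3.57% were higher. At an unadjusted p under 0.05, 11 members (12.9%) and 23.2% of all genes passed. DESeq2 called 9 members (10.6%) and 14.4% of all genes. The 2 edgeR calls were Uqcr10 and Ndufaf7. Ndufaf7, a methyltransferase that acts in complex I assembly, is at chr17:78937136-78948052. Its CPM was 9.76, 9.16, 8.71 and 7.96 with DPBS, 8.13, 9.52, 10.2 and 10.6 with control ASO and 14.2, 12.7, 10.9 and 13.1 with Upf3b-ASO. The Upf3b-ASO livers lay above all others, the lowest of them by a small margin. The log2 fold change was 0.51 ± 0.12 (adjusted p = 0.026) against DPBS and 0.40 ± 0.12 (adjusted p = 0.062) against control ASO, on 141 to 234 counts per liver. The call against DPBS was lost under 3 of 11 other settings and in 6 of 12 fits that left out a liver. The median log2 fold change against DPBS was 0.07 over the members and 0.00 over all genes. In CPM, 9 members (10.6%) did not overlap between the Upf3b-ASO and DPBS livers, against 22.5% of all genes. Both comparisons use the same Upf3b-ASO livers, so they are not separate evidence.

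**Figure D4:**
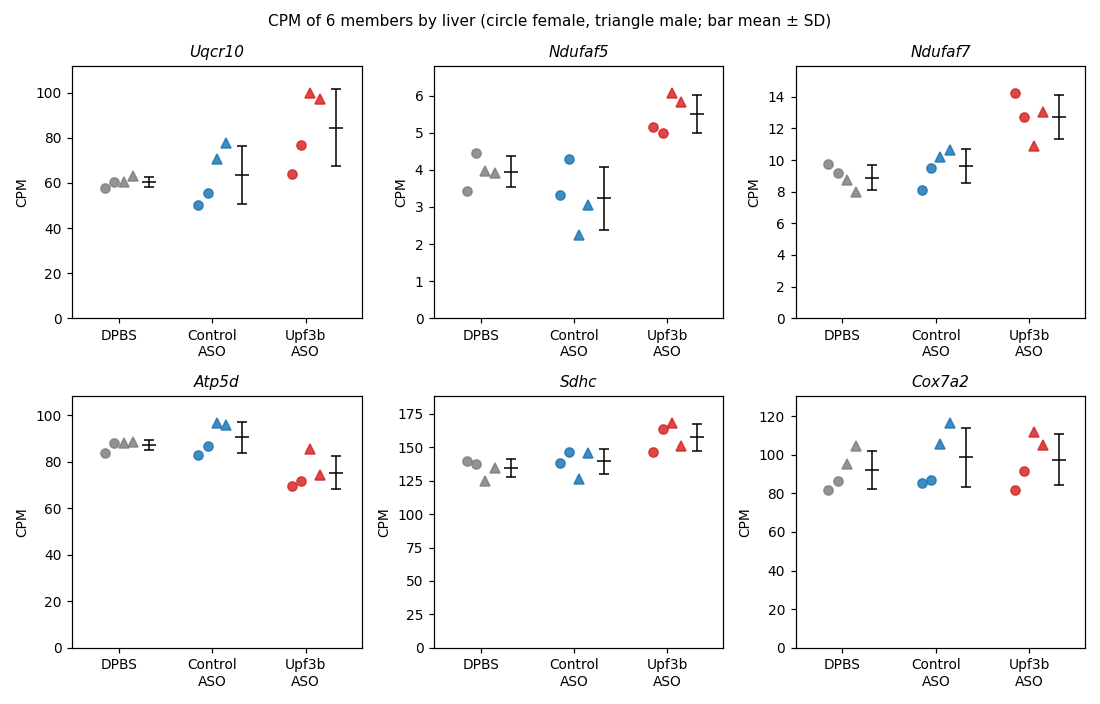
CPM of Uqcr10, Ndufaf5, Ndufaf7, Atp5d, Sdhc and Cox7a2 in each liver, by group. Circles are females, triangles are males and bars are the mean ± SD (n = 4). For Ndufaf5, Ndufaf7 and Sdhc the Upf3b-ASO livers lie above all 8 others, whereas Uqcr10 and Atp5d overlap with the control ASO livers.

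Since 2 of the called genes were assembly factors, the members were described by role. The 8 complex I assembly factors had a median log2 fold change of 0.26 against control ASO and 0.22 against DPBS, and 6 of the 8 values were above 0 in each. Without the control ASO liver 3 the first median was 0.17, and under scaling by library totals the medians were 0.42 and 0.32. In edgeR, 1 of the 8 was called in each comparison, Ndufaf5 in the first and Ndufaf7 in the second, both higher, while 4.34% and 3.57% of all genes were higher. Without the control ASO liver 3, edgeR called 3 of the 8 in each comparison. That fit called 24.5% of all genes against control ASO and 28.7% against DPBS, in either direction. With that liver kept, DESeq2 called 3 of the 8 against control ASO, with 17.9% of all genes called in either direction. All of these sets of 3 were Ndufaf1, Ndufaf5 and Ndufaf7. Ndufaf1, which acts in the assembly of the membrane arm, was at 25.9, 24.98, 23.9 and 26.3 CPM with DPBS, 22.9, 23.3, 16.8 and 27.2 CPM with control ASO and 26.7, 28.3, 36.2 and 31.0 CPM with Upf3b-ASO. The Upf3b-ASO livers overlapped with control ASO liver 4, and the log2 fold change was 0.43 ± 0.14 against control ASO (adjusted p = 0.077). Ndufaf2, a chaperone of late assembly, was at 0.13 ± 0.14, and Ndufaf3 and Ndufaf4, which act together in the early steps, were at -0.16 ± 0.18 and -0.18 ± 0.17 (SE; adjusted p = 0.57, 0.6 and 0.51). The last 3 were named after their values had been seen. Whether the assembly factors differed from the subunits was not tested.

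None of the 7 core subunits of complex I, which carry its redox centres, passed against control ASO in edgeR, in DESeq2 or in limma, with 0 at an unadjusted p under 0.05 in edgeR. Their median was 0.01 under TMM scaling and 0.18 under library totals. Ndufs1, with iron-sulfur clusters of the peripheral arm, was at 164, 168, 159 and 177 CPM with DPBS, 156, 168, 137 and 178 CPM with control ASO and 168, 167, 175 and 177 CPM with Upf3b-ASO. The groups overlapped, with a log2 fold change of 0.10 ± 0.09 (adjusted p = 0.48). Ndufv1, which binds NADH, was at -0.06 ± 0.07, and Ndufs7, the protein that Ndufaf5 modifies, was at 0.01 ± 0.14 (SE; adjusted p = 0.6 and 0.97). The 95% intervals of all 3 included 0. Ndufs7 was named after its values had been seen.

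The 30 other subunits of complex I had a median of 0.01 as well, and none passed in edgeR against control ASO (4 at an unadjusted p under 0.05). DESeq2 called Ndufa10, Ndufb7 and Ndufs4, all lower, with 17.9% of all genes called in either direction, and limma called 0. Ndufs4, an accessory subunit that was named after its values had been seen, was at 47.7, 48.7, 43.0 and 46.1 CPM with DPBS, 43.3, 45.3, 52.3 and 49.4 CPM with control ASO and 33.5, 37.2, 42.7 and 40.7 CPM with Upf3b-ASO. The Upf3b-ASO livers lay below all 8 others, with a log2 fold change of -0.30 ± 0.09 against control ASO (adjusted p = 0.057). Ndufab1, the mitochondrial acyl carrier protein, was at -0.05 ± 0.07 (adjusted p = 0.68). Ndufa4, named as a complex I subunit but now placed in complex IV, was at 0.19 ± 0.09 (adjusted p = 0.19) at a level of 672 TPM.

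All 4 complex II genes had log2 fold changes above 0 in both comparisons with Upf3b-ASO. None passed in edgeR, with 1 at an unadjusted p under 0.05 against control ASO and 2 against DPBS. DESeq2 called Sdhc and Sdhd against DPBS, with 14.4% of all genes called, and 0 against control ASO. Limma called 0 in both. Sdhc, a membrane anchor, was at 139.9, 137.9, 124.9 and 134.5 CPM with DPBS, 138.5, 146.7, 126.5 and 146.0 CPM with control ASO and 146.9, 163.6, 168.4 and 151.3 CPM with Upf3b-ASO. The Upf3b-ASO livers lay above the other 8, the lowest by less than 1 CPM, at 0.18 ± 0.08 (adjusted p = 0.18) against control ASO. Sdhd, the other anchor, was at 0.11 ± 0.08, the flavoprotein Sdha at 0.13 ± 0.09 and the iron-sulfur subunit Sdhb at 0.07 ± 0.11 (SE; adjusted p = 0.36, 0.37 and 0.72).

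In complex III, Uqcr10 alone passed among the 8 genes. Uqcrc1 and Uqcrc2, the core proteins, were at -0.10 ± 0.06 and 0.02 ± 0.09 against control ASO (SE; adjusted p = 0.32 and 0.89). The Rieske iron-sulfur protein Uqcrfs1 was at -0.17 ± 0.08, and the hinge protein Uqcrh at 0.13 ± 0.11 (SE; adjusted p = 0.2 and 0.45). These 4 did not pass, and whether Uqcr10 differed from them was not tested.

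None of the 12 tested complex IV genes passed against control ASO in edgeR, DESeq2 or limma, with 0 at an unadjusted p under 0.05 in edgeR. Their median was -0.05 under TMM scaling and 0.13 under library totals. Cox4i1, the largest nuclear subunit, was at -0.10 ± 0.10, Cox5a, which binds thyroid hormone metabolites, at -0.12 ± 0.08 and Cox8a, a small subunit, at -0.09 ± 0.07 (SE; adjusted p = 0.54, 0.36 and 0.45). Cox7a2l, which takes part in joining complexes III and IV into supercomplexes, was at -0.03 ± 0.08 (adjusted p = 0.86).

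In complex V, Atp5d alone passed among the 16 tested genes. The catalytic subunits Atp5a1 and Atp5b were at 0.01 ± 0.08 and 0.04 ± 0.07 against control ASO (SE; adjusted p = 0.95 and 0.73). Atp5b was at 1092, 1096, 1092 and 1116 CPM with DPBS, 1077, 1161, 1206 and 1232 CPM with control ASO and 1144, 1177, 1282 and 1218 CPM with Upf3b-ASO. Its Upf3b-ASO livers lay above all DPBS livers but overlapped with the control ASO livers. The subunit c genes Atp5g1, Atp5g2 and Atp5g3 were at -0.03 ± 0.09, 0.02 ± 0.22 and 0.00 ± 0.10 (SE; adjusted p = 0.86, 0.97 and 0.99).

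The counts of called members moved with the control ASO liver 3. Without it, 7 members (8.24%) passed between Upf3b-ASO and control ASO livers, against 24.5% of all genes. Ndufaf1, Ndufaf5, Ndufaf7 and Uqcr10 were then higher and Atp5d, Ndufb7 and Ndufs4 lower. Against DPBS, 11 members (12.9%) passed without it, 8 higher and 3 lower, against 28.7% of all genes. The part of the cholangiocyte and endothelial signal of this liver in these counts was not tested. Without the control ASO liver 1, edgeR called 1 member (1.18%), Atp5d, between Upf3b-ASO and control ASO livers, with 8.18% of all genes, and neither Uqcr10 nor Ndufaf5 passed. Against DPBS it called 2 members (2.35%), Uqcr10 and Ndufaf7, and 8.42% of all genes. The part of the erythroid and Kupffer cell signal of this liver was not tested.

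The control ASO was also compared with the vehicle. In edgeR, 0 of 85 members passed between control ASO and DPBS livers, against 1 of 8846 genes (0.0113%). At an unadjusted p under 0.05, 2 members passed (2.35%, against 6.97% of all genes), and DESeq2 and limma called 0 members as well. The median was 0.06 over the members and 0.01 over all genes, and 81 of the 85 intervals lay within 0.5 of 0. Uqcrb, a subunit that takes part in ubiquinone binding, was the 1 member whose control ASO and DPBS livers did not overlap in CPM (1.18%, against 2.95% of all genes), and it was named after its values had been seen. The largest difference was that of Ndufaf5, at -0.29 ± 0.19 (adjusted p = 0.64).

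Next, males and females were compared over the 3 groups in the same fit, since each group held 2 of each. In edgeR, 5 of 85 members (5.88%) passed and all 5 were higher in males under TMM scaling, whereas limma on log2(TPM + 1) called 5 other members, all lower, with 24.7% of all genes called. Those 5, named after their values had been seen, were Uqcrb, Ndufc2, Ndufab1, Sdhc and Atp5g2. The edgeR share is read against 887 of all genes (10.0%), of which 380 were higher in males (4.30%). At an unadjusted p under 0.05, 23 members (27.1%) and 23.8% of all genes passed. DESeq2 called 15 members (17.6%) and 15.4% of all genes, and without the control ASO liver 3 edgeR called 13 members (15.3%) and 21.9% of all genes. Without the control ASO liver 1 it called 2 members (2.35%), Cox7a2 and Cox6a1, and 6.57% of all genes. The 5 were Cox7a2, Cox6a1 and Uqcr10, with the smallest p, followed by Cox6b1 and Uqcrq, which were named after their values had been seen. No member was called under scaling by library totals. The log2 fold changes of 69 of the 85 members were above 0, with a median of 0.10 against 0.01 over all genes. Under library totals the medians were -0.03 and -0.12, and under limma on log2(TPM + 1) they were -0.17 and -0.25, so the sign of the male difference rests on the scaling while the members stood 0.08 to 0.09 above all genes under each.

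Cox7a2, the liver form of subunit VIIa of complex IV, was at 81.7, 86.1 and 91.6 CPM in the 6 females and 95.3, 106 and 117 CPM in the 6 males (lowest, median and highest). The sexes did not overlap, with a log2 fold change of 0.31 ± 0.06 (SE, adjusted p = 0.0067). Cox6a1, the liver form of subunit VIa, was at 81.4, 90.3 and 97.1 CPM in females and 102, 107 and 130.3 CPM in males. It did not overlap either, at 0.30 ± 0.07 (adjusted p = 0.019). Cox6b1, which links the monomers of complex IV, was at 122, 133 and 139 CPM in females and 139.6, 162 and 174 CPM in males, at 0.27 ± 0.07 (adjusted p = 0.037). Its sign turned under limma on TPM, where the male to female difference was -0.0041.

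Uqcr10 was at 50.2, 59.1 and 77.03 CPM in females and 60.4, 74.1 and 99.8 CPM in males, which overlapped, with a log2 fold change of 0.34 ± 0.09 (adjusted p = 0.031). Uqcrq, another small subunit of complex III, was at 0.33 ± 0.09 (adjusted p = 0.042). In CPM, 4 members (4.71%) had all males above all females, against 5.70% of all genes for either direction. These were Cox6a1, Cox6b1, Cox7a2 and Ndufa3, the last an accessory subunit of complex I.

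Complex IV had the largest log2 ratio of male to female sums among the 5 complexes, 0.22 under TMM scaling, against 0.09 to 0.11 for the others. Its sum was 1227 to 1502 CPM in males and 1101 to 1222 CPM in females, without overlap but with a narrow gap under TMM scaling. Scaled by library totals, the sums of the sexes overlapped. Of its 12 genes, 11 had values above 0 under TMM scaling, with a median of 0.20. Under library totals the median was 0.07 and under limma on log2(TPM + 1) it was -0.07, but it stood 0.18 to 0.19 above the median of all genes in each. Its exception was Cox7a1, at -0.66 ± 0.36 (SE, adjusted p = 0.31). Complexes I, II, III and V overlapped between the sexes.

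**Figure D5:**
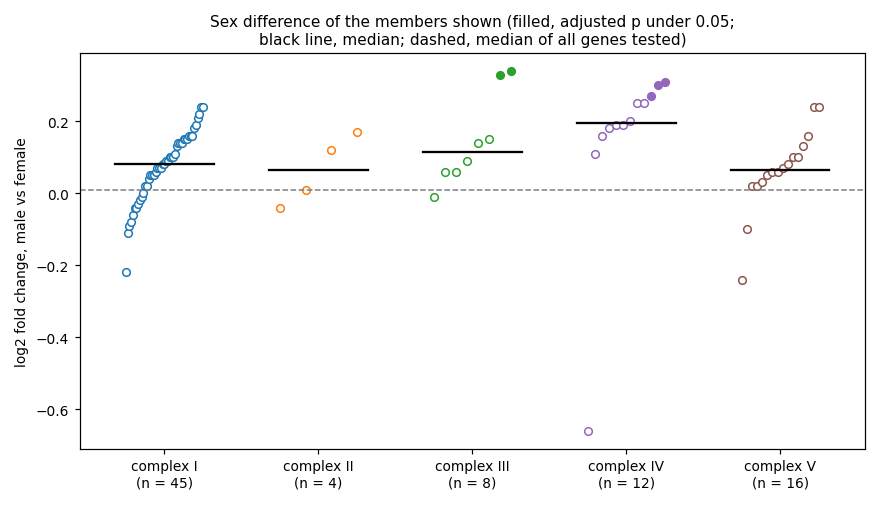
Log2 fold change between males and females of the 85 tested genes by complex (edgeR, 6 livers per sex, TMM scaling). Points are genes, filled where the adjusted p was under 0.05, black lines are medians by complex and the dashed line is the median of all tested genes. Values lie above 0 for 69 of the 85 genes and for 11 of 12 complex IV genes under this scaling, and the median of the 85 falls to -0.17 under limma on log2(TPM + 1).

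Whether the effect of Upf3b-ASO differed between the sexes was tested with an interaction. In edgeR 0 of 85 members and 0% of all genes passed, with 1 member at an unadjusted p under 0.05 (Ndufaf5), or 1.18% against 7.31% of all genes, and DESeq2 and limma called 0 members. With 2 livers per sex and group, the interval of such a difference is wide. For Ndufaf5 the interaction was 0.75 ± 0.33 (SE, adjusted p = 0.59). Without control ASO liver 4, 8 members (9.41%) passed against 43.7% of all genes, a fit in which the control ASO males were liver 3 alone.

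The transcripts of the members were then examined, since NMD acts on transcripts. Of the counts of the 94 genes, 3.81 ± 0.08% fell on transcripts annotated as NMD targets with DPBS, 3.87 ± 0.12% with control ASO and 3.95 ± 0.15% with Upf3b-ASO (mean ± SD, n = 4 each). The groups overlapped, and the difference between the ASO groups was 0.085 percentage points. These counts lay on 19 transcripts of 17 genes. For 5 transcripts (1.79% of those compared) the share of the counts of the gene lay outside both reference groups in all 4 Upf3b-ASO livers, against 1.20% of 30957 transcripts of all tested genes. They were named after their values had been seen and are from Ndufa7, Atp5g1, Uqcrb (2 transcripts) and Ndufb5. The retained-intron transcript of Ndufa7 took 9.34 to 14.1% of the counts of the gene with DPBS, 8.55 to 12.9% with control ASO and 7.05 to 7.40% with Upf3b-ASO. The retained-intron transcript of Uqcrb took 0.341 to 0.455%, 0.275 to 0.372% and 0.556 to 0.91% in the same order. Shares of transcripts that overlap in sequence are estimates by Salmon, and their error was not in the files used here.

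Finally, other genes of mitochondrial energy metabolism were tested in the same fit. Of 30 tested assembly factors of complex IV and other complexes, 2 were higher in Upf3b-ASO than in control ASO livers in edgeR and none was lower, while 4.34% of all genes were higher and 5.95% lower. When the control ASO liver 3 was left out, 4 of the 30 were higher and 2 lower, with 24.5% of all genes called. Against DPBS, edgeR called 1 of the 30 higher and 0 lower, with 10 at an unadjusted p under 0.05 (23.2% of all genes). Without that liver, 10 were higher and 2 lower against DPBS, with 28.7% of all genes called. Cox14, which acts early in the assembly of COX1, was at 7.34, 8.68, 9.36 and 9.32 CPM with DPBS, 9.89, 10.1, 8.87 and 10.8 CPM with control ASO and 13.1, 13.8, 15.3 and 16.0 CPM with Upf3b-ASO. The log2 fold change was 0.55 ± 0.10 (SE, adjusted p = 0.0077) against control ASO and 0.75 ± 0.10 (adjusted p = 0.0014) against DPBS. Atpaf2, an assembly factor of the F1 part of the ATP synthase, was at 0.37 ± 0.09 (adjusted p = 0.029) against control ASO. Limma did not call Atpaf2 in this comparison, and DESeq2 called it.

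Of 13 tricarboxylic acid cycle enzymes, Suclg1, a subunit of succinyl-CoA ligase, was higher in Upf3b-ASO than in control ASO livers, at 0.33 ± 0.09 (SE). Limma did not call it. Of the 6 tested carriers of adenine nucleotides and phosphate, edgeR called 0 against control ASO (2 at an unadjusted p under 0.05) and limma 0. DESeq2 called Vdac3, an outer membrane channel, with 17.9% of all genes called. The 2 cytochromes c and c1 and the single tested uncoupling protein gene gave 0 calls between Upf3b-ASO and control ASO livers in edgeR, DESeq2 and limma, with 0 at an unadjusted p under 0.05. Of 10 tested regulators of mitochondrial biogenesis, 0 passed against control ASO in the 3 tools, with 0 at an unadjusted p under 0.05 in edgeR. With the control ASO liver 3 left out, edgeR called Esrra and Tfb1m, 2 of the 10, lower against control ASO, with 24.5% of all genes called. Against DPBS that fit called 1 of the 10 higher and 1 lower, with 28.7% of all genes called. Ppargc1a, a coactivator of respiratory genes, was lower in males at -0.81 ± 0.14 (adjusted p = 0.0047). Against DPBS, Idh3b of the cycle was higher at 0.32 ± 0.09 (adjusted p = 0.045), while 3.57% of all genes were higher. In this comparison limma called 0 of the 13 cycle enzymes. DESeq2 called 1 higher and 1 lower, with 14.4% of all genes called.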

How the data were processed

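Total RNA of 12 livers was sequenced by the authors after TruSeq library preparation, in 3 groups of 4 by treatment. According to the submitters' processing notes and the study's methods, the authors used bcl2fastq 2.17.1.14 and Salmon 0.7.2 against mouse cDNA of build GRCm38.p4, and deposited for each animal an estimated count and a TPM for 92468 transcripts. The effective lengths in the 12 deposited files were identical, so no correction by sample entered them.

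Transcripts were joined to genes through GENCODE M21 (GRCm38), which took in 98.1% of them, and estimated counts were added up by gene, then rounded. Genes that reached 5 TPM in 4 or more livers were tested with edgeR 4.0.16 (quasi-likelihood, TMM scaling, terms for group and sex, R 4.3.3), with Benjamini-Hochberg adjustment over all 8846 genes and a threshold of 0.05. The pseudocounts for limma 3.58.1 were 1 and 0.1 TPM, and DESeq2 1.42.0 was run on the same rounded counts. CPM were scaled by TMM. The fits were tested on simulated data. The members, gene lists and tests were chosen with earlier results of these data known.

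The members named by rule were a set of catalytic, core and tissue-form genes, every member called between groups, the 3 largest changes per comparison and up to 3 called members per direction for sex. Library totals were 13277900 to 20387700 counts. The labels give separate animals. Reads carried no molecular identifiers, so counts limit the counting error only. Promoters came from RefSeq (GRCm38.p6). Values of a few single genes are not reported here.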

Additional observations from a re-analysis of the deposited data

Results flagged for a closer look

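For 41 measures in 3 groups (123 group values), a liver far from the other 3 of its group was sought with Dixon's test, which chance passes in about 1 of 20 groups. It found 2. The summed CPM of complex III in the DPBS liver 3 was 740.2, while the other 3 DPBS livers lay between 789 and 797. The Atp5d level in the DPBS liver 1 was 83.8 CPM, while the other DPBS livers lay between 88.0 and 88.3 CPM. Both gaps are small beside the range over the other groups.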

How the results depend on the processing

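The counts of called members were small and moved with the settings. Between Upf3b-ASO and control ASO livers, 2 members were higher and 1 was lower. DESeq2 gave 4 and 4, a TPM of at least 5 in all 12 livers gave 1 and 2, and protein-coding transcripts alone gave 1 and 2. A transcript length offset, no sex term and no TPM filter each gave 1 and 0, and a fit of the groups compared alone gave 0 and 0. Lower calls were also 0 under library totals, under upper-quartile factors and in limma with either pseudocount. Without the assembly factors, 1 higher call was left.

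Against DPBS, 2 were higher and 0 lower. DESeq2 gave 6 and 3 and the groups compared alone gave 8 and 4. No sex term, the stricter TPM filter, limma on log2(TPM + 0.1) and structural subunits alone each gave 1 higher, and no TPM filter gave 0. For sex the 5 calls became 15 in DESeq2, 3 with the length offset and 0 under library totals and with no TPM filter. Calls between control ASO and DPBS were 0 under every setting run.

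Leaving out each liver in turn gave 0 to 4 higher and 0 to 3 lower members against control ASO, 0 to 8 higher and 0 to 3 lower against DPBS, 1 to 13 for sex and 0 to 8 for the interaction. Where this left a sex of a group with 1 liver, that liver was assumed to vary like the others. The median log2 fold change against control ASO, 0.01, was 0.19 under library totals and 0.18 in limma with either pseudocount, and -0.02 to 0.05 with a liver left out. That against DPBS was 0.03 to 0.11. The log2 ratio of the summed CPM, 0.02, was 0.19 under library totals and -0.03 to 0.06 with a liver left out. The difference in the share on NMD transcripts was 0.036 to 0.158 percentage points with a liver left out. The cause of these moves was not tested.

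With the replicate number as a block, 1 member was higher and 0 lower against control ASO, and 1 higher against DPBS. Livers with the same number correlated in their deviations from the group means (mean r 0.491, 0.198 to 0.611), but so did livers of the same sex with the other number (0.485). With sex removed the mean was 0.0246 (-0.114 to 0.182), so the numbers were not taken as pairs.

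For named genes, 2325 of 2446 values kept their direction and their side of the threshold, 95 lost the call, 24 gained it and 2 turned sign. The latter were the male to female difference of Cox6b1 in limma, at -0.0041 on log2(TPM + 1) and -0.0042 on log2(TPM + 0.1).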

Other observations

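Atp5g1, a gene for subunit c of the ATP synthase, differed in the share of a transcript while its total did not pass the test. The transcript ENSMUST00000090541 took 4.44 to 8.18% of the counts of the gene with DPBS, 4.92 to 6.94% with control ASO and at most 3.96% with Upf3b-ASO, so that the Upf3b-ASO livers lay below the other 8. The total of the gene was at -0.03 ± 0.09 (log2 fold change against control ASO, SE, adjusted p = 0.86). It was chosen after its values had been seen, and the difference in share was not tested.

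Ndufs5 and Ndufs6, accessory subunits of complex I, had the next largest differences between control ASO and DPBS livers after Ndufaf5, at -0.23 ± 0.15 and 0.24 ± 0.10 (log2 fold change, SE, adjusted p = 0.64 and 0.64). Ndufs5 was at 30.1, 21.9, 28.7 and 29.4 CPM with DPBS, 25.8, 22.5, 18.0 and 26.8 CPM with control ASO and 26.1, 27.6, 34.0 and 35.1 CPM with Upf3b-ASO, and its value against control ASO was 0.39 ± 0.15 (adjusted p = 0.12). Ndufs6 was at 41.8, 37.0, 41.1 and 34.4 CPM, 39.5, 44.3, 49.2 and 50.2 CPM and 38.4, 38.7, 44.8 and 49.3 CPM in the same order of groups. None of these passed.

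Of the 30 tested assembly factors of complex IV and other complexes, Cox18, Cox19 and Foxred1 were higher in males in edgeR, while 4.30% of all genes were. Under scaling by library totals Cox18 and Cox19 were called, and limma on log2(TPM + 1) called 0 higher and 2 lower, Acad9 and Cox20. Of the 13 mitochondrially encoded subunits mt-Nd4l was higher in males in edgeR, at 0.44 ± 0.12 (SE, adjusted p = 0.045), and 11 had an unadjusted p under 0.05 (23.8% of all genes). DESeq2 called 9 of the 13 higher (15.4% of all genes called), and edgeR without the control ASO liver 3 called 10 (21.9%). Library totals and limma called 0. The sum was 28680 to 43310 CPM in males and 23370 to 28050 CPM in females. As a share of the deposited counts the sexes overlapped, at 2.73 to 3.20% and 2.36 to 2.90%. The median male difference of the 13 was 0.42 under TMM scaling, 0.27 under library totals and 0.12 under limma, all on the log2 scale.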
